A study of Mus musculus with 8 samples.

Results

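The genes described here make, sense or transmit cyclic GMP. There are 9 of them among the 38355 genes counted in each library: the peptide gene Nppc, the natriuretic peptide receptor genes Npr1, Npr2 and Npr3, the receptor cyclase gene Gucy2c, the soluble cyclase subunit genes Gucy1a1 and Gucy1b1, and the kinase genes Prkg1 and Prkg2. They were taken by symbol, and each matched 1 Ensembl identifier. The set was selected on earlier KO against WT results of these libraries, among them the low Gucy2c counts in KO. The fold changes of these 9 genes are therefore given as descriptions, without p-values.

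RNA sequencing was done on 4 KO libraries and 4 WT libraries from C57Bl6 mouse embryos of stage E11.5. KO embryos were Prdm12-/-, lacking the zinc-finger transcription factor that nociceptor precursors need, and WT embryos were wild type. The tissue was thoracic dorsal root ganglia together with the adjoining spinal cord, and the question asked of it is what Prdm12 controls in somatosensory neurons. The labels give neither the deleted part of Prdm12 nor the number of embryos behind a library, so p-values measure only the spread between these libraries.

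Cyclic GMP is made by membrane receptors that carry their own cyclase domain and by a soluble enzyme that responds to nitric oxide. In mouse embryos, C-type natriuretic peptide, encoded by Nppc and released by the dorsal spinal cord, acts on its receptor NPR-B, encoded by Npr2, on sensory axons. The cyclic GMP that follows activates the kinase encoded by Prkg1, and this chain is known for making sensory axons branch where they enter the spinal cord. Gucy2c encodes the receptor for guanylin and uroguanylin and is best known from the intestinal epithelium.

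Libraries held between 23088908 and 67782435 counts, the highest in WT replicate 1, which stood at 2.55 times the median of the other libraries. Prdm12 itself stood at 1.55, 1.52, 0.975 and 0.962 CPM (counts per library, scaled to its size) in KO replicates 1 to 4, against 22.2, 37.9, 39.6 and 31.9 CPM in WT replicates 1 to 4. The labels and this gene went together in all 8 libraries. Every matched gene of the marker lists for sensory neurons, crest and glia, neural tube progenitors and spinal neurons reached 1 CPM in at least 1 library, as did every gene of the lists for skeletal muscle, mesenchyme, endothelium and mural cells. The libraries therefore hold several tissues, and fewer cells of a type and less RNA per cell cannot be told apart in them. Scores of the crest and glia, progenitor and spinal neuron lists differed between KO and WT by 0.17, −0.16 and 0.05 log2 units and those of the endothelial and gut lists by 0.01 and 0.02 (exact permutation p = 0.0857, 0.143, 0.4, 0.857 and 0.914). Log2 fold changes were positive for 5 of 7 crest and glia, 0 of 5 progenitor and 2 of 6 spinal neuron markers. The crest and glia and spinal neuron scores thus average genes that went in opposite directions.

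Gucy2c was the member that differed most between the groups. It had 1, 0, 1 and 2 counts in KO replicates 1 to 4, against 36, 21, 25 and 18 counts in WT replicates 1 to 4. On the library-scaled level these are 0.0361, 0, 0.0375 and 0.0874 CPM in KO and 0.535, 0.775, 0.980 and 0.634 CPM in WT. Every KO library lay below every WT library, and every KO library held fewer than 3 counts.

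Summed over libraries, Gucy2c had 4 of 101879493 counts in KO and 100 of 149092197 counts in WT. The KO level was 5.80% of the WT level, with a 95% exact binomial interval of 1.55% to 15.3%, which covers counting error only. The fitted log2 fold change was −4.04 (SE 0.49), a value that depends on how the fit treats counts near 0. By this value Gucy2c ranked second, after Prdm12, among the 39 genes that passed the test as lower in KO. It entered the test through its WT libraries alone, since its KO counts were too few to pass the filter on low counts.

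**Figure D1:**
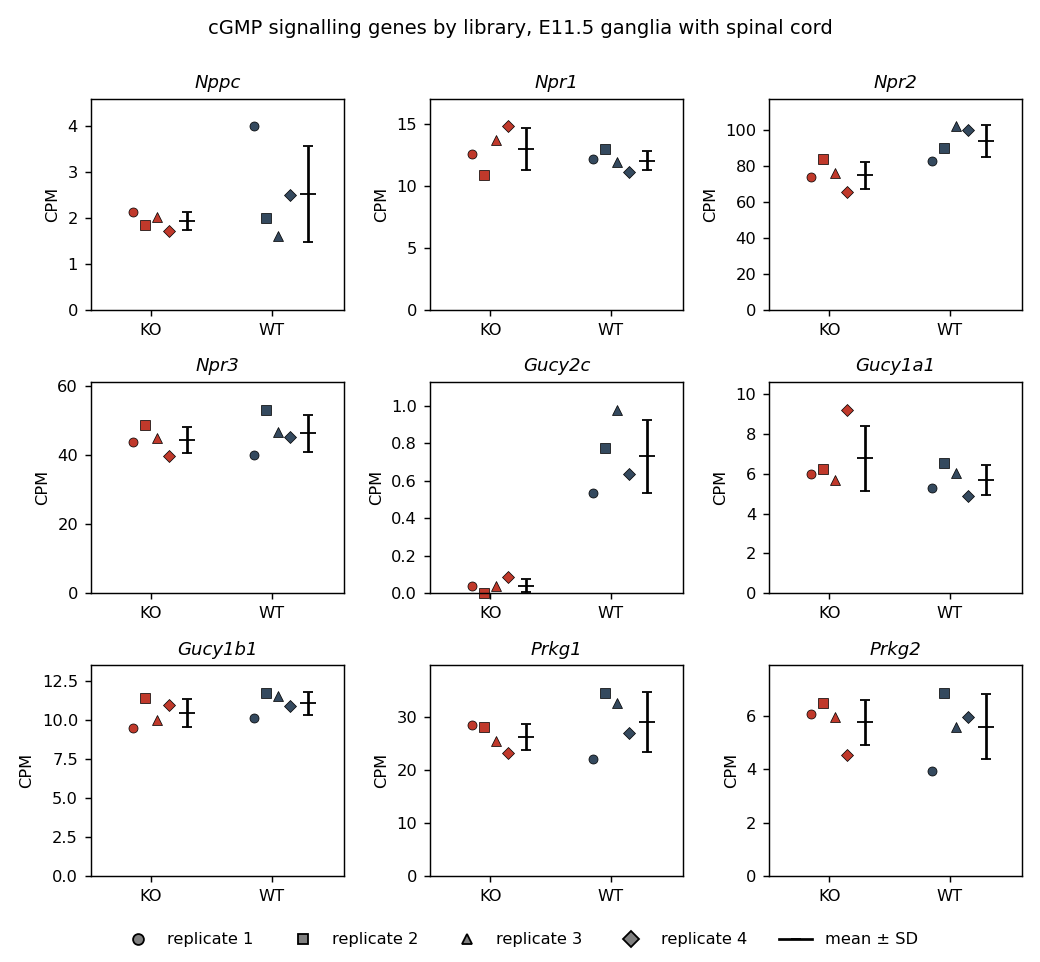
Levels in CPM of the 9 genes in each library, KO left of WT, with the replicate number given by the marker shape and the mean ± SD beside the points. Gucy2c in KO stayed at or below 0.0874 CPM, while in WT it started at 0.535 CPM; in the other 8 genes the KO and WT points overlap.

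Of the 9 genes, 1 passed the edgeR quasi-likelihood test at an adjusted p of 0.05, and it was lower in KO. Of the 16068 genes tested, 0.299% passed in either direction and 0.243% as lower. Gucy2c was also the 1 of the 9 with every KO library below every WT library, which held for 2.45% of all genes tested. Since the set was chosen with this contrast known, nothing is read from these counts. With the mean score of muscle and mesenchyme markers as a covariate Gucy2c no longer passed, at a log2 fold change of −5.09 (SE 0.68). In that fit 1 of all 16068 genes tested passed. A filter at a mean of 1 CPM removed Gucy2c from the test. The muscle list averaged 5.88 log2 CPM in KO and 5.62 in WT (exact permutation p = 0.0571), and the mesenchyme list 8.39 in KO and 8.24 in WT (exact permutation p = 0.0857). Log2 fold changes were positive for 7 of 7 muscle and 8 of 8 mesenchyme markers, and their part in the Gucy2c value was not tested.

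Markers of sensory neurons moved with the Gucy2c difference. Their mean log2 CPM over 9 genes was lower by 0.56 in KO, at 4.52 in KO and 5.07 in WT (two-sided exact permutation test, p = 0.0286, the lowest that 4 against 4 can give, and adjusted p = 0.193 over 9 marker lists). Among these markers 3 of 9 passed the test as lower, Pou4f1 and Tlx2, which encode homeodomain factors of sensory neurons, among them, and 0 passed as higher. Their summed level overlapped between groups, at 685 to 770 CPM in KO and 729 to 936 CPM in WT. The part of sensory neuron number in the Gucy2c values was not tested.

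Genes of the intestinal epithelium, where Gucy2c is classically found, were low, as was Gucy2c itself. Of 8 listed gut epithelium markers, 7 stayed below 1 CPM in every library, namely Vil1, Cdh17, Cdx2, Fabp2, Cdx1, Guca2a and Muc2, and Fabp2 had 0 counts throughout. Gucy2c also stayed below 1 CPM in every library, with a WT mean of 0.731 CPM. The WT means of Lgals4, Muc2 and Cdh17 were 1.09, 0.393 and 0.322 CPM, and those of the other listed markers lay at or below 0.179 CPM (Vil1). The summed level of the list was 1.48 to 2.64 CPM in KO and 1.80 to 2.43 CPM in WT, its largest part from Lgals4, and the groups overlapped. The genes of the peptides that activate the receptor were at the limit of detection: Guca2a, the guanylin gene, had 1 count and Guca2b, the uroguanylin gene, 0 counts in all libraries together.

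Gucy2c lies on the minus strand of chromosome 6 (mm10, chr6:136697284-136781765), and no other annotated gene overlaps it. Of the 3 nearest tested genes on each side, 0 passed the edgeR test and 1 had an unadjusted p under 0.05, against 0.299% and 6.35% of all genes tested. DESeq2 called 0 of these 6 genes and limma-voom 1, against 0.641% and 0.778% of all genes tested. The closest on the lower side, Plbd1, which encodes a phospholipase B domain protein, lies 35356 bp away and is also on the minus strand. Plbd1 had 0.578, 0.641, 0.337 and 0.350 CPM in KO replicates 1 to 4, against 0.787, 1.22, 1.25 and 1.06 CPM in WT replicates 1 to 4. Its groups did not overlap, yet it missed the threshold (log2 fold change −1.13, SE 0.27, adjusted p = 0.223), on 8 to 16 counts per KO library. It passed as lower in edgeR without WT replicate 1 (log2 fold change −1.28, adjusted p = 0.0462), a fit that called 133 genes where the fit on all libraries called 48. Plbd1 was called in 2 of the 16 alternatives that tested it. The limma-voom fit that called it put it at −1.19 (adjusted p = 0.0389).

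The other flanking genes were close to no difference, apart from the sparsely counted Grin2b. Atf7ip, a chromatin cofactor gene, stood at −0.06 (SE 0.04, adjusted p = 0.901) on the log2 scale of KO over WT. On the other side the histone gene H2afj stood at −0.03 (SE 0.06, adjusted p = 0.97), the splicing factor gene Wbp11 at −0.02 (SE 0.04, adjusted p = 0.975) and Smco3 at 0.07 (SE 0.18, adjusted p = 0.977) on the log2 scale. Grin2b, an NMDA receptor subunit gene 523773 bp away, stood at 0.42 (SE 0.36, adjusted p = 0.927), at about 1 CPM in each group, and at −0.37 (SE 0.49) with the muscle and mesenchyme score in the fit.

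**Figure D2:**
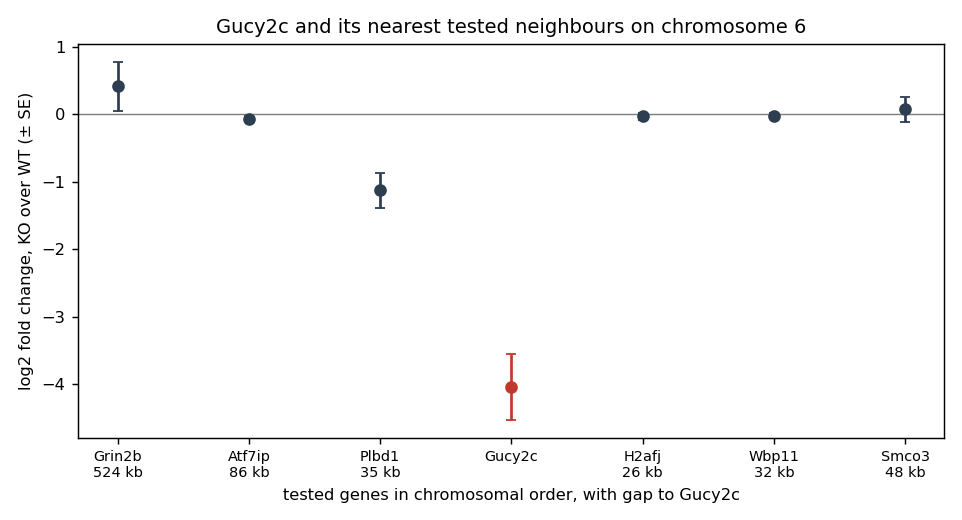
Log2 fold change (KO over WT, ± SE) of Gucy2c and of the 3 nearest tested genes on each side, in chromosomal order, with the gap to Gucy2c under each name. Gucy2c lies at −4.04 and Plbd1 at −1.13, while Atf7ip, H2afj, Wbp11 and Smco3 lie within 0.08 of 0.

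The genes whose library pattern was nearest to that of Gucy2c were found by a fixed measure. Likeness was taken as the root mean square difference between mean-centred log2 CPM profiles over the 8 libraries, among genes with a mean of at least 1 CPM. The log2 CPM used a prior count of 2, which sets much of the Gucy2c level in KO, where it had 0 to 2 counts: its KO minus WT difference was −2.97 with this prior and −3.98 with a prior count of 0.5. With the smaller prior, 4 of the 5 nearest genes were the same, and the distance of the fifth was 1.31 in place of 0.927 log2 units. Among the 5 nearest were Cdhr1, a cadherin-related gene, at a difference of 0.535 log2 units, the non-coding gene F730016J06Rik at 0.818, Wdr66, which encodes a WD-repeat protein, at 0.857 (sixth with the smaller prior), and the ribosomal protein pseudogene Rpl3-ps1 at 0.927. Cdhr1 had 2.71, 3.12, 3.49 and 2.32 CPM in KO replicates 1 to 4, against 9.39, 21.3, 21.7 and 14.2 CPM in WT replicates 1 to 4. As with Gucy2c, its lowest WT library was replicate 1 and its highest was replicate 3, a match that choosing by likeness favours. In F730016J06Rik the lowest WT library was replicate 2, at 1.14 CPM. Of the 5 nearest genes Rpl3-ps1 is the least certain. It shares sequence with its parent gene, and the part of shared reads in its counts was not tested. It did not pass the test (log2 fold change −3.20, adjusted p = 0.393) except without WT replicate 1 or with DESeq2 (−3.58, adjusted p = 3.5e-08, and −3.22, adjusted p = 0.00042). In Rpl3-ps1, WT replicate 1 stood at 2.02 CPM, inside the KO range of 1.40 to 2.10 CPM, and the other WT libraries at 18.4 to 21.8 CPM.

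Npr2, the receptor for C-type natriuretic peptide, was the most abundant of the set and averaged lower in KO. It stood at 73.8, 84.0, 76.1 and 65.6 CPM in KO replicates 1 to 4, against 83.1, 90.1, 102 and 99.9 CPM in WT replicates 1 to 4. The groups touched at a single point, where KO replicate 2 lay just above WT replicate 1. Means were 74.9 ± 7.60 CPM in KO and 93.8 ± 8.81 CPM in WT (SD, n = 4 each), a log2 fold change of −0.32 (SE 0.08).

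Npr2 did not pass the edgeR test over all genes, whereas DESeq2 and limma-voom with quality weights both called it lower. Those 2 tools called 0.641% and 0.778% of all genes tested, against 0.299% with edgeR. Since the set was chosen with this contrast known, nothing is read from these calls. Over all alternatives the Npr2 log2 fold change stayed between −0.38 and −0.25. Without WT replicate 1 it was −0.37 (SE 0.07) and still not called by edgeR. The gene lies on the plus strand of chromosome 4 (chr4:43631935-43651244) and is overlapped by the antisense gene Gm12473. Npr1, Npr3, Prkg1, Prkg2 and Gucy1a1 are also overlapped by annotated genes. For Prkg1 these are 3 genes on the opposite strand, the protein-coding Cstf2t among them. Whether counting used strand is not given in the sources used here.

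Nppc, which encodes the ligand of that receptor, was low and uneven among WT libraries. It had 59, 46, 54 and 39 counts in KO replicates 1 to 4, and 268, 54, 41 and 71 counts in WT replicates 1 to 4. Scaled to library size this gave 2.13, 1.84, 2.02 and 1.71 CPM in KO and 3.98, 1.99, 1.61 and 2.50 CPM in WT. The KO libraries lay inside the WT range, and WT replicate 1 alone was well above the rest. The log2 fold change was −0.43 (SE 0.25) over all libraries and −0.07 (SE 0.18) without WT replicate 1. WT replicate 1 also held the highest summed level of neural tube progenitor markers in WT, at 1318 CPM where WT replicates 2 to 4 had 1051 to 1085 CPM, and the lowest score of sensory neuron markers, at 4.64 against 5.16 to 5.26. The part of this difference in the Nppc value was not tested.

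Npr1 and Npr3, the remaining natriuretic peptide receptors, overlapped between groups. Npr1 encodes the receptor for the atrial and B-type peptides and had 12.6, 10.9, 13.7 and 14.8 CPM in KO replicates 1 to 4, against 12.2, 12.99, 11.9 and 11.1 CPM in WT replicates 1 to 4. Its log2 fold change was 0.11 (SE 0.10), and the antisense gene Gm16048 overlaps it. Npr3 encodes the clearance receptor, which binds the peptides but has no cyclase domain. It had 43.7, 48.8, 45.0 and 39.7 CPM in KO replicates 1 to 4, against 40.1, 53.2, 46.8 and 45.2 CPM in WT replicates 1 to 4, and its log2 fold change of −0.06 (SE 0.09) was smaller than its error.

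The soluble cyclase is a dimer of an alpha subunit, here Gucy1a1, and the beta subunit Gucy1b1. Gucy1a1 had 5.997, 6.25, 5.70 and 9.22 CPM in KO replicates 1 to 4, against 5.30, 6.53, 6.04 and 4.90 CPM in WT replicates 1 to 4. KO replicate 4 stood apart from the other KO libraries, which lay inside the WT range. The log2 fold change was 0.26 (SE 0.16), and over the fits that left out a single library it ran from 0.08 to 0.34. With the score of muscle and mesenchyme markers in the fit it was −0.25 (SE 0.15), the opposite sign.

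KO replicate 4 also held the highest summed levels of the skeletal muscle and mural cell markers. Its summed skeletal muscle markers reached 786 CPM, where KO replicates 1 to 3 had 536 to 638 CPM and WT libraries 479 to 576 CPM. Its summed mural cell markers, the smooth muscle and pericyte genes of vessel walls, reached 480 CPM, where KO replicates 1 to 3 had 349 to 402 CPM and WT libraries 325 to 387 CPM. Over all libraries the mural list did not separate the groups (score difference 0.12, exact permutation p = 0.4). The part of these tissues in the Gucy1a1 values was not tested.

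Gucy1b1 was the steadiest of the set within groups. It had 9.46, 11.4, 9.97 and 10.9 CPM in KO replicates 1 to 4, against 10.1, 11.7, 11.6 and 10.9 CPM in WT replicates 1 to 4, and its log2 fold change was −0.08 (SE 0.09). The within-group coefficient of variation was 7.61% for Gucy1b1, against 30% for Nppc and 65.8% for Gucy2c, the genes with the fewest counts. Between genes, the alpha subunit was the lower of the pair in every library: per kilobase, the ratio of Gucy1a1 to Gucy1b1 was 0.366 ± 0.076 in KO and 0.289 ± 0.0258 in WT (SD, n = 4 each), and KO replicate 4 at 0.476 was the highest.

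The kinases overlapped between groups as well. Prkg1, the cytosolic kinase of the sensory branching pathway, had 28.4, 27.98, 25.5 and 23.1 CPM in KO replicates 1 to 4, against 22.0, 34.5, 32.6 and 27.0 CPM in WT replicates 1 to 4. WT replicate 1 was below all KO libraries, while WT replicates 2 and 3 were above them. The log2 fold change was −0.14 (SE 0.13), and −0.25 (SE 0.09) without WT replicate 1, in neither case called.

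Prkg2, the membrane-bound kinase, had 6.07, 6.49, 5.96 and 4.55 CPM in KO replicates 1 to 4, against 3.95, 6.86, 5.61 and 5.95 CPM in WT replicates 1 to 4. Its log2 fold change was 0.06 (SE 0.17), and −0.08 (SE 0.13) without WT replicate 1. WT replicate 1 was the lowest WT library for Prkg1 and Prkg2, and it was the lowest or highest WT library for 7 of the 9 genes. KO replicate 4 was the lowest or highest KO library for 8 of the 9.

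Compared per kilobase of merged exons (RPKM), the 9 genes spread widely, with receptor cyclases at both ends. Npr2 led at 16.0 ± 1.63 RPKM in KO and 20.1 ± 1.89 RPKM in WT (SD, n = 4 each). Npr3 followed at 4.72 ± 0.40 RPKM in KO and 4.94 ± 0.574 RPKM in WT. Gucy2c was last, at 0.0102 ± 0.00907 RPKM in KO and 0.185 ± 0.0488 RPKM in WT.

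Between these ends the order was less sharp. Gucy1b1, Prkg1, Npr1 and Nppc came next, with means of 1.85 to 2.72 RPKM in KO and 2.42 to 2.82 RPKM in WT, and their WT ranges overlapped. Prkg2 and Gucy1a1 formed the next pair, at 1.07 and 0.975 RPKM in KO and 1.04 and 0.817 RPKM in WT, again overlapping. In WT, Npr2, Npr3, the group of 4, the pair and Gucy2c were separated from each other by their library ranges. With the longest transcript as gene length, 5 of the 9 genes kept their rank, and Prkg1 exchanged places with Gucy1b1 and Prkg2 with Gucy1a1.

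**Figure D3:**
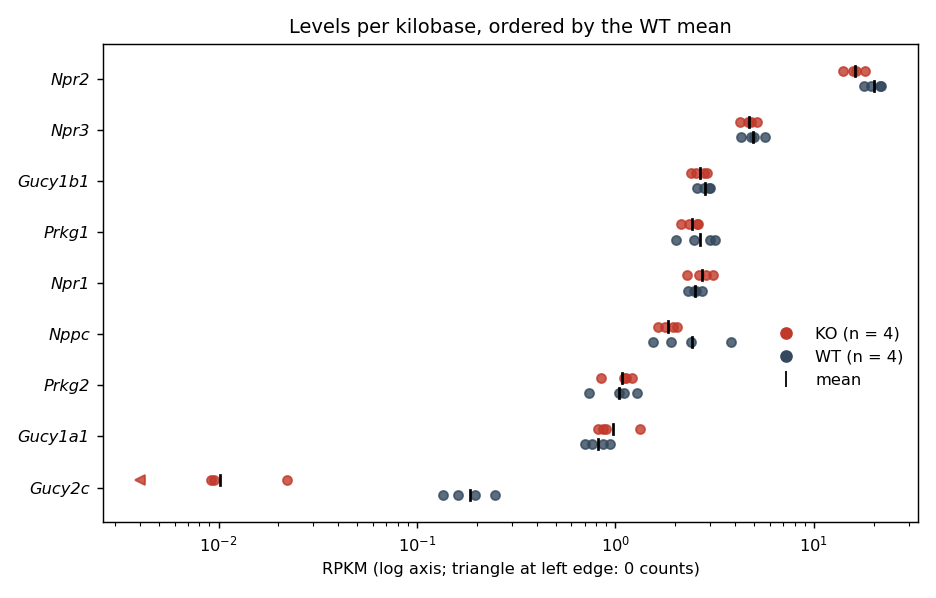
Levels in RPKM on a log axis, with genes in the order of their WT mean, KO points above WT points and a bar at each mean; a triangle at the left edge marks 0 counts. Npr2 lies at 14.1 to 18.0 RPKM in KO and 17.8 to 21.9 RPKM in WT, and Gucy2c is the lowest gene in both groups.

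The 3 receptor genes with a cyclase domain were thus very unequal. Npr2 made up 85.3 ± 2.84% of their summed RPKM in KO and 88.1 ± 1.38% in WT (SD, n = 4 each). Npr1 made up 14.6 ± 2.78% in KO and 11.1 ± 1.40% in WT. The Gucy2c share was 0.0569 ± 0.0532% in KO and 0.804 ± 0.169% in WT, so that its difference barely touched the sum.

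Other genes of cyclic GMP signalling were counted by a list. The list of 49 symbols covered ligands, peptide processing, nitric oxide synthases, other cyclases, phosphodiesterases, cyclic nucleotide-gated channels, kinase substrates and export pumps. Of these, 48 were matched by symbol to a counted gene, and 28 had enough counts to be tested. The phosphodiesterase gene Pde2a was not matched, and whether it was counted under an identifier without a symbol was not checked. With edgeR 0 of the 28 passed as higher and 0 as lower, against 0.056% and 0.243% of all genes tested. At an unadjusted p under 0.05 there was 1, against 6.35% of all genes tested. DESeq2 and limma-voom also called 0, and at an unadjusted p under 0.05 they had 2 and 4 of the 28, against 5.71% and 8.82% of all genes tested. With shares this low over all genes, a count of 0 in 28 is no result about the list. The log2 fold changes were positive in 14 and negative in 14, and their median was −0.003, as was that of all genes tested. The KO and WT libraries overlapped for all 28, and 4.14% of all genes tested had groups that did not overlap.

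**Figure D4:**
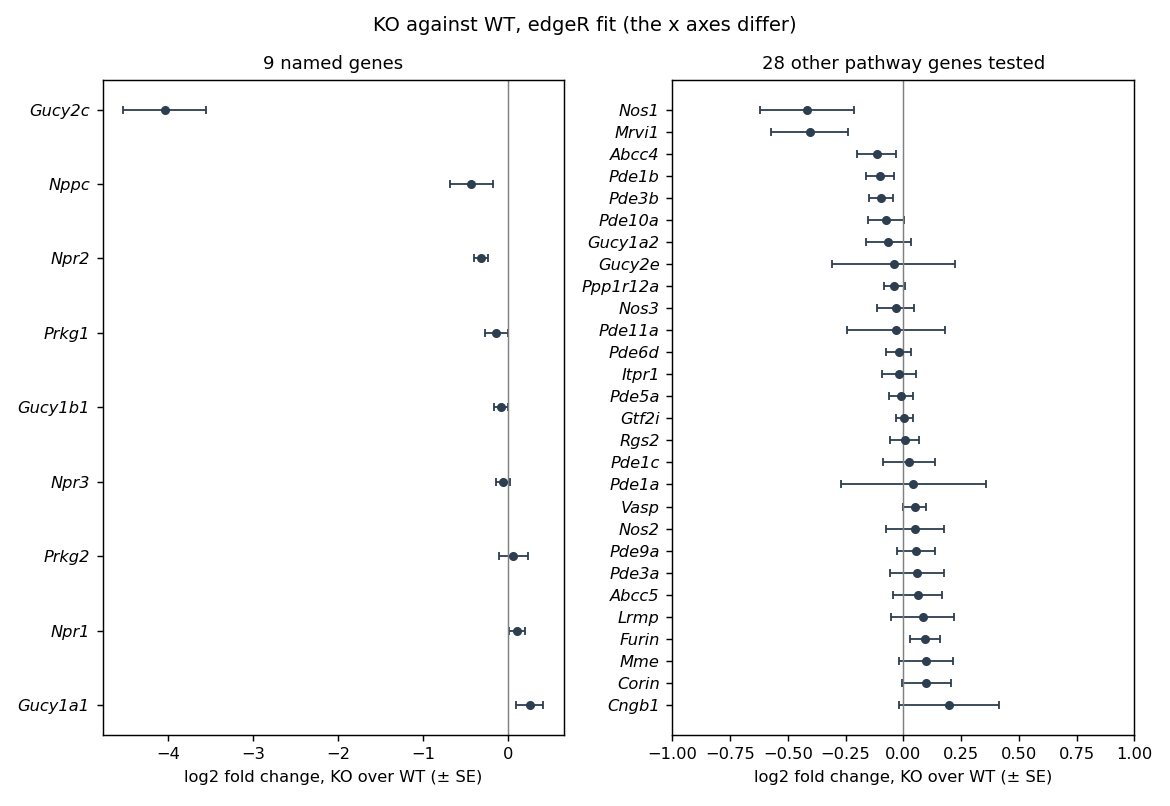
Log2 fold change (KO over WT, ± SE) from the edgeR fit for the 9 genes on the left and the 28 other tested genes of cyclic GMP signalling on the right; the axes differ in scale. Gucy2c lies at −4.04, and the other pathway genes lie between −0.42 and 0.20.

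The smallest p in that list belonged to Mrvi1, which encodes a substrate of the Prkg1 kinase that acts on calcium release. Mrvi1 averaged 6.08 ± 1.01 CPM in KO and 8.08 ± 1.77 CPM in WT (SD, n = 4 each), with a log2 fold change of −0.41 (SE 0.17) and an adjusted p of 0.731. Nos1, the neuronal nitric oxide synthase gene, averaged 6.01 ± 1.43 CPM in KO and 8.12 ± 1.85 CPM in WT (log2 fold change −0.42, SE 0.20, adjusted p = 0.813). For both genes the KO and WT libraries overlapped. With the score of muscle and mesenchyme markers in the fit, Mrvi1 stood at −0.90 (SE 0.18, adjusted p = 0.536), the largest move among the alternatives. The phosphodiesterase genes Pde3b and Pde1b stood at −0.10 each (adjusted p = 0.843 and 0.871), Furin, a convertase of propeptides, at 0.09 (adjusted p = 0.908), and the cyclic nucleotide exporter gene Abcc4 at −0.12 (adjusted p = 0.91) on the log2 scale.

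By role, the most abundant genes per kilobase were near-equal in the groups. Gtf2i, which encodes a transcription factor that binds the Prkg1 kinase, stood at 60.7 ± 0.514 RPKM in KO and 60.5 ± 1.13 RPKM in WT (SD, n = 4 each). Pde6d stood at 18.9 ± 0.832 RPKM in KO and 19.2 ± 0.944 RPKM in WT; it belongs by name to the phosphodiesterases but encodes a carrier of prenylated proteins. Nos3, the endothelial nitric oxide synthase gene, stood at 2.70 ± 0.194 RPKM in KO and 2.76 ± 0.176 RPKM in WT, beside endothelial markers whose summed level was 399 to 472 CPM in KO and 396 to 455 CPM in WT. Gucy1a2, the other alpha subunit of the soluble cyclase, stood at 1.20 ± 0.0594 RPKM in KO and 1.25 ± 0.146 RPKM in WT.

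Export and processing genes did not pass the edgeR test either. Abcc5, an export pump gene, stood at 0.06 on the log2 scale of KO over WT (adjusted p = 0.964). Corin and Mme, which encode a natriuretic peptide convertase and the peptide-degrading neprilysin, stood at 0.10 each (adjusted p = 0.947 and 0.956), and at −0.18 and −0.07 with the muscle and mesenchyme score in the fit. KO replicate 4 was the highest KO library for both, at 33.8 CPM for Corin and 31.3 CPM for Mme, as it was for Gucy1a1. Cngb1, the channel gene with enough counts to test, stood at 0.20 (SE 0.22, adjusted p = 0.947) on about 1 CPM.

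The 20 listed genes left untested were at the edge of detection, with no group mean above 0.414 CPM. All 5 other ligand genes were among them. Nppa and Nppb, the genes of the atrial and B-type peptides, held 11 and 25 counts in all libraries together, and Ostn, which encodes a peptide that binds the clearance receptor, held 25. Nppc was thus the peptide ligand gene with measurable counts in these libraries.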

How the data were processed

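Total RNA was isolated on spin columns and sequenced as Illumina libraries, per the labels' protocols. In the deposited files each gene has a raw count per library, which the authors did not normalize. Per the submitters' processing notes, featureCounts 1.4.6-p1, STAR 2.3.0e and DESeq2 1.8.2 were among the tools used, with build mm10. The annotation release, the strand setting and the treatment of shared reads are not stated there. The 5 summary rows held 0 counts (0% of all) and were left out. GENCODE M21 (GRCm38) gave symbols, positions and exon lengths for 36602 of 38355 genes.

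In R 4.3.3, edgeR 4.0.16 tested KO against WT (filterByExpr, TMM, robust quasi-likelihood F test, group alone, Benjamini-Hochberg over 16068 genes, threshold 0.05). Each SE is the size of the log2 fold change over the root of its F statistic. Biological variation between libraries (the coefficient edgeR estimates) was 9.57%. CPM and RPKM use TMM-adjusted totals. At the smallest total, 1 count is 0.0437 CPM. Marker scores are mean log2 CPM (prior count 2), compared by exact permutation over 70 assignments.

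The genes, lists and tests were chosen with earlier results of these data known. Genes named were the 9, the called and the 6 lowest-p pathway genes, the most abundant per role, the 5 genes most like Gucy2c and its 3 nearest tested neighbours a side. Some genes that these rules name are not reported here. Alternatives were other scalings, filters, DESeq2 1.42.0, limma-voom 3.58.1, a replicate block, a muscle and mesenchyme covariate, a thinned WT replicate 1 and leaving out each library. The edgeR step was tested on simulated counts. No pair of libraries within a group agreed within sampling noise. Figures were drawn with matplotlib 3.10.9.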

Additional observations from a re-analysis of the deposited data

Results flagged for a closer look

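Among 88 groups of 4 libraries checked, 6 held a library far from the others, where chance gives about 1 in 20. Gucy1a1 in KO replicate 4 lay at 9.22 CPM, while the remaining KO libraries held 5.70 to 6.25 CPM. Pde3b in KO replicate 3 lay at 54.1 CPM, while the remaining KO libraries held 47.7 to 48.3 CPM. Wdr66 in KO replicate 2 lay at 1.40 CPM, while the remaining KO libraries held 2.36 to 2.53 CPM. Corin and Mme in KO replicate 4 lay at 33.8 and 31.3 CPM, while KO replicates 1 to 3 held 23.3 to 24.9 and 25.1 to 25.9 CPM. The summed neural tube progenitor markers in WT replicate 1 reached 1318 CPM, where WT replicates 2 to 4 had 1051 to 1085 CPM.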

How the results depend on the processing

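The count of genes called, 48 with the edgeR fit, was 103 with DESeq2, 125 with limma-voom, 1 with the muscle and mesenchyme covariate, and between 15 and 133 when a library was left out, the highest without WT replicate 1 and lower without any of the other 7. With a replicate block it was 16, and Gucy2c was called with and without the block. Deviations from group means correlated between −0.19 and 0.28 over the 4 pairs with the same replicate number. Over the 12 pairs with differing numbers they correlated between −0.49 and 0.33. So few pairs cannot settle whether the numbers pair the samples. Of the 9 genes, 1 was called in each leave-one-out fit, 2 with limma-voom (Gucy2c and Npr2), 0 with the stricter filter, which drops Gucy2c by construction, and 0 with the covariate, where the cause was not tested. DESeq2 called Npr2 and gave Gucy2c no adjusted p. The Gucy2c log2 fold change was −5.09 with the covariate, between −4.61 and −3.67 when a library was left out, and negative in all 16 alternatives that tested it. Gucy1a1, Npr1 and Nppc changed sign with the covariate, at −0.25, −0.06 and 0.16, as did Pde1b, Grin2b, Corin and Mme at 0.036, −0.37, −0.18 and −0.067. Gucy1a2 did so with limma-voom, at 0.0195. Npr3 and Prkg2 did so without WT replicate 2 and WT replicate 1, at 0.01 and −0.08. The neighbours of Gucy2c, the genes most like it and the most abundant pathway genes were added to these alternatives after their values were seen; of 321 such values 27 lost a call, 4 gained one and 13 changed sign, none of them in a called gene. With a library left out, sign changes came in log2 fold changes of −0.0515 to 0.0102 for H2afj, −0.0284 to 0.00904 for Wbp11, −0.0784 to 0.192 for Smco3, −0.0736 to 0.00571 for Nos3, −0.0419 to 0.0215 for Pde6d, −0.00812 to 0.0181 for Gtf2i, −0.0285 to 0.144 for Abcc5 and −0.0346 to 0.157 for Corin. Cdhr1, F730016J06Rik and Wdr66 each lost their call with any KO library left out. The smaller prior count for likeness was also chosen after the data were seen. The pathway list stayed at 0 called genes in all 17 alternatives. With the longest transcript as gene length, 5 of the 9 genes kept their place in the order of levels. Depth limits Gucy2c in KO, where no library exceeded 2 counts.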
